A study of Mus musculus with 6 samples.

Results

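The Mediator complex carries signals from DNA-bound activators to RNA polymerase II. Its subunit genes were taken as the rows of the gene count table with a symbol of Med, a number and an optional l, together with Cdk8, Cdk19 and Ccnc. This gave 33 of 38293 rows: 11 genes of the head module, 9 of the middle, 5 of the tail, the scaffold gene Med14 and 7 of the kinase module. Poly(A) RNA, made into stranded libraries, came from wild-type primary cortical neurons of Swiss-Webster mouse embryos at embryonic day 16, used at day 13 in vitro. The 3 control libraries are labelled as untreated, and the 3 NMDA libraries come from cultures given 50 µM NMDA, an agonist of one class of glutamate receptors, for 10 minutes and then 50 minutes without drug. The labels name no sorting step, and they speak of 2 biological replicates where 3 libraries per group are listed. The p-values therefore measure the spread between these libraries, which may in part be technical. For each gene this spread is estimated in part from the other genes.

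Mediator contacts RNA polymerase II and the general transcription factors through its head and middle modules, and most activators dock on the tail or on Med1 of the middle. Med14 runs through the complex as a scaffold. The kinase module joins reversibly and holds a cyclin-dependent kinase (Cdk8 or its paralogue Cdk19), cyclin C (Ccnc), Med12 or Med12l, which activates the kinase, and Med13 or Med13l, which links the module to the core. In neurons, as in other cells, these subunits act at the enhancers and promoters of genes that respond to signals. The place of Med27 to Med30 differs between schemes of the complex; here they count with the head, and values with them in the tail are given where they matter.

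The libraries held 15417234 to 19183999 counted reads, of which the Mediator genes took 0.113% to 0.122%. The response to NMDA was present in all 3 treated libraries: Fos stood at 2.67 to 3.79 CPM (counts scaled to the library's size) in control and 98.5 to 144 CPM in NMDA libraries. Summed neuron markers lay at 4821 to 5390 CPM in control and 4667 to 5328 CPM in NMDA libraries. Astrocyte markers were also present, at 1581 to 2206 and 1727 to 2815 CPM, whereas 5 microglial markers summed to 1.27 to 2.37 CPM and the endothelial marker Cldn5 was listed at 0 in every library. Oligodendrocyte-lineage markers summed to 393 to 844 and 480 to 832 CPM, and 3 endothelial markers to 11.6 to 23.6 CPM. Libraries with the same replicate number deviated together from their group means, so each comparison was made both without and with the number as a block; the blocked comparison is called within pairs.

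In control libraries nearly all Mediator transcripts were at moderate levels. Of the 33 genes, 32 passed the low-count filter, each with 65 to 2461 reads in every library, so none passed through 1 group alone. Levels of different genes are compared here per length, as CPM per kb of annotated exon. Med19, a middle subunit, was highest at 21.4 ± 2.97 CPM per kb (mean ± SD, n = 3), followed by the head subunits Med30 at 17.7 ± 3.09 and Med6 at 14.99 ± 1.56 and by Ccnc at 14.8 ± 1.16 CPM per kb. Lowest among the 32 were Med12l at 2.38 ± 0.332, Med26, the subunit that recruits elongation factors, at 2.27 ± 0.177, and Med20 of the head at 1.73 ± 0.0504 CPM per kb. The length counts every annotated exon of a gene, and which isoforms were present was not tested. Before the division by length, Med20, at 12.7 CPM over 7324 bp, lay above Med18, at 5.01 CPM over 1998 bp. The median over the 32 was 8.47 CPM per kb, against 4.86 over all 14489 tested genes with an annotated length, and 22 of the 32 lay above the median rank. Most neighbours in this order could not be separated: over all 33 genes, in only 5 of 32 steps did the control libraries of the higher gene all exceed those of the lower one. The step from Med20 to Med10, listed at 0 reads in every library, is among the 5. Per kb, no tail subunit was among the 15 highest, and the head and middle modules spanned nearly the whole range. This order rests in part on the annotated lengths. In CPM alone, Med24 of the tail, at 56.6 CPM over 6528 bp, exceeded Med19, at 44.1 CPM over 2059 bp.

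**Figure D1:**
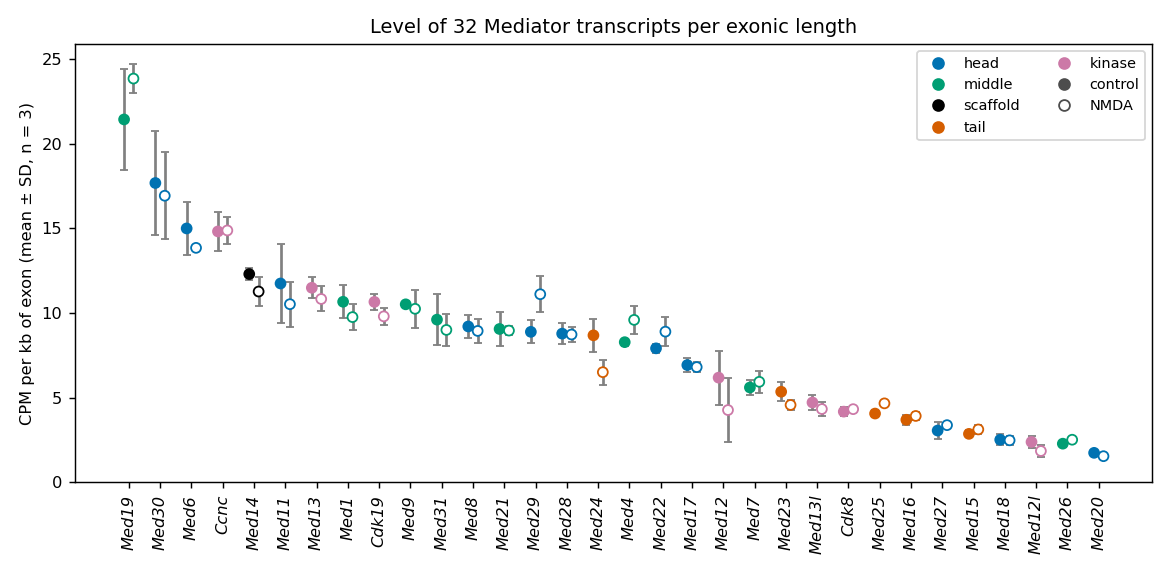
Level of each tested Mediator transcript in CPM per kb of annotated exon (mean ± SD, n = 3 libraries), ordered by the control mean. Filled points are control and open points NMDA libraries, coloured by module; Med19 leads at 21.4 and Med20 closes at 1.73 CPM per kb.

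Med10, a middle subunit, was listed at 0 reads in all 6 libraries. On GRCm38 the gene lies on chromosome 13 from 69802395 to 69816104, and 92.8% of its exonic bases are shared with Gm26819, a noncoding gene on the opposite strand, which had 30 to 103 reads per library. The strand setting of the counting is not stated in the sources used, and the part this overlap plays in the count of 0 was not tested. Gm26819 itself was lower in NMDA libraries within pairs (log2 -0.74 ± 0.20 (SE), edgeR adjusted p = 0.0172) and not without the block (log2 -0.75, adjusted p = 0.324). For Med10 no level can be read from these counts.

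Within the kinase module the paralogues were present at unequal levels. Per kb of exon, Cdk19 exceeded Cdk8 by 2.56-fold in control libraries, Med12 exceeded Med12l by 2.60-fold and Med13 exceeded Med13l by 2.44-fold. Part of each fold comes from the annotated lengths. In CPM the control means were 62.3 for Cdk19 and 41.0 for Cdk8, and 47.6 for Med12 and 30.3 for Med12l. They were 124 CPM for Med13 and 72.6 CPM for Med13l. The shares below are also per kb. Cdk8 made up 27.6%, 28.2% and 28.5% of the 2 kinase transcripts in the control libraries (replicates 1, 2 and 3, the order used throughout) and 29.6%, 29.95% and 32.3% in the NMDA libraries. All NMDA libraries thus lay above all controls in this share, as a description without a test. Med12 made up 70.1% to 74.5% of the Med12 and Med12l transcripts in control and 65.5% to 74.4% in NMDA libraries, and Med13 69.01% to 73.1% and 70.8% to 72.2% of its pair. How reads that match both paralogues were counted is likewise not stated there.

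Without the block, no Mediator transcript passed the test between NMDA and control libraries. In edgeR's quasi-likelihood test 0 of 32 had an adjusted p under 0.05, where 0.43% of all 14642 tested genes did (0.376% higher and 0.0546% lower). DESeq2 and limma-voom also called 0, and their shares over all tested genes were not computed. At an unadjusted p under 0.05 edgeR found 3 (Med24, Med29 and Med12l), or 9.38% of the 32, against 13.7% of all tested genes. The median log2 fold change of the members was -0.03, against -0.0054 over all tested genes, with 12 positive and 20 negative values between -0.54 for Med12 and 0.32 for Med29. The 95% interval of the fold change lay inside 1.5-fold in either direction for 28 of the 32 (87.5%, against 61.8% of all tested genes); the others were Med12, Med12l, Med24 and Med29. In bulk RNA, fewer cells of a type and less RNA per cell cannot be told apart.

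Within pairs 3 Mediator transcripts fell and 0 rose: Med12 and its paralogue Med12l of the kinase module and Med24 of the tail. These are 9.38% of the 32 tested members, against 8.35% of all tested genes called lower, 5.65% called higher and 14% called in either direction. The share of Mediator genes that fell is thus near the background. At an unadjusted p under 0.05 the fit found 7 members, or 21.9%, against 28.7% of all tested genes. The median over the members was -0.03 and over all tested genes -0.0036. With the DESeq2 test and the same block, 2 members fell and 0 rose, where 6.58% of all tested genes were called (3.62% lower and 2.96% higher).

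**Figure D2:**
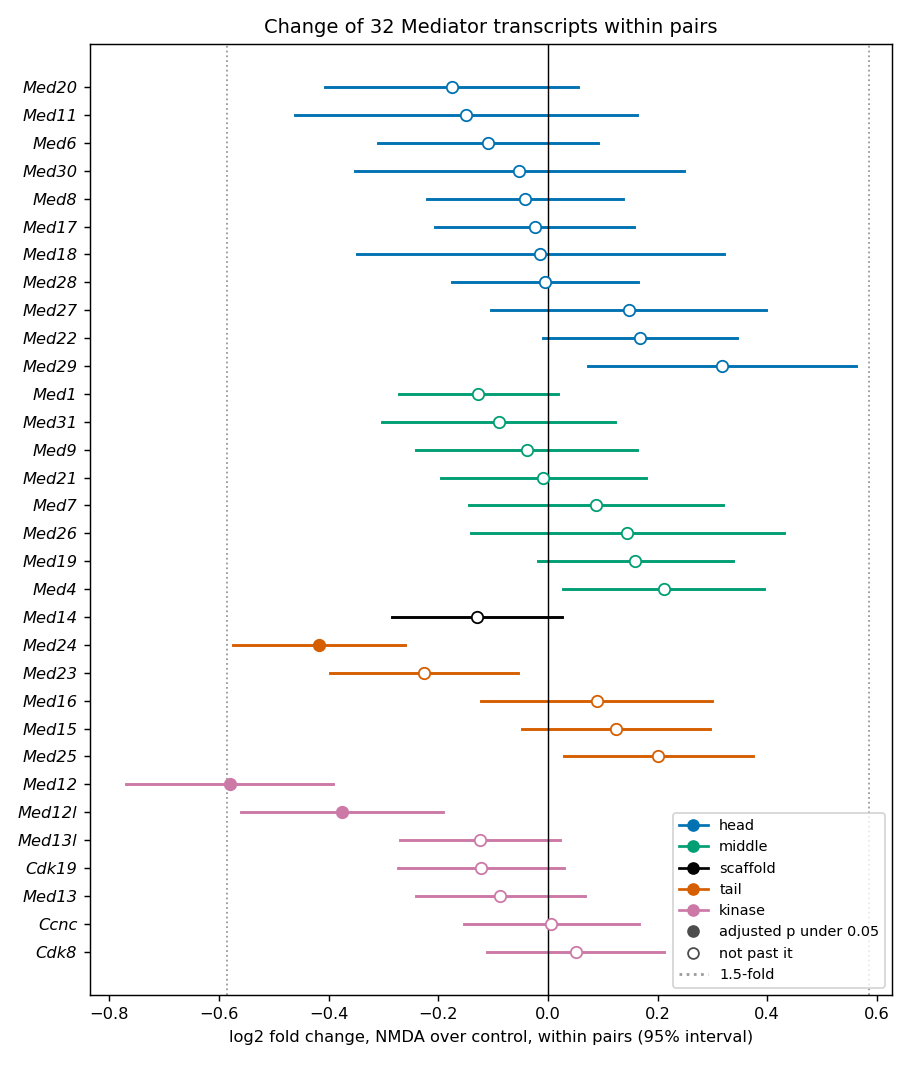
Log2 fold change of NMDA over control within pairs for the 32 tested Mediator transcripts, grouped by module, with 95% intervals from edgeR. Filled points passed an adjusted p of 0.05; these are Med12, Med24 and Med12l, all on the lower side, and the dotted lines mark a 1.5-fold change.

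Med12, which activates the Cdk8 and Cdk19 kinases, showed the largest difference. The control libraries stood at 61.3, 44.0 and 37.5 CPM and the NMDA libraries at 49.2, 27.3 and 22.1 CPM. The groups overlap, because both libraries numbered 1 were the highest of their group, while every NMDA library lay below the control of the same number. Within pairs the log2 fold change was -0.58 ± 0.09 (SE; adjusted p = 0.000254), with differences of -0.32, -0.69 and -0.76 in pairs 1, 2 and 3. Without the block the same difference was -0.54 ± 0.31 with an adjusted p of 0.484, and it depended on single libraries: -0.94 without NMDA replicate 1, -0.32 without control replicate 1 and -0.30 without NMDA replicate 3, none past the threshold. Med12 lies on chromosome X from 101274030 to 101297465 on GRCm38, and 9.72% of its exonic bases are shared with Gm21986 on the same strand, which had 1 to 15 reads per library. Its closest tested protein-coding neighbour Nlgn3, a synaptic adhesion gene 1703 bp away, stood at a log2 change of 0.01 ± 0.07 within pairs (adjusted p = 0.935).

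Med12l, the paralogue of Med12, was at 34.8, 29.7 and 26.4 CPM in control libraries and at 28.03, 23.7 and 18.7 CPM in NMDA libraries. Here too the groups overlap and each NMDA library lay below its partner, by -0.31, -0.32 and -0.50 on the log2 scale. Within pairs the change was -0.38 ± 0.09 (adjusted p = 0.00711) and without the block -0.37 ± 0.16 (adjusted p = 0.344), or -0.21 without NMDA replicate 3. The call did not hold with DESeq2 and the block (adjusted p = 0.0594) or without the libraries of replicate 3 (adjusted p = 0.0782). Med12l is the longest Mediator gene, spanning 312858 bp on chromosome 3 from 59005825 to 59318682, and 15.3% of its exonic bases are shared with Igsf10 on the opposite strand. Igsf10 had 73 to 112 reads per library, against 351 to 643 for Med12l, and stood at -0.01 ± 0.15 within pairs. Siah2, a ubiquitin ligase gene and the nearest tested protein-coding gene that lies wholly outside Med12l, at a distance of 313425 bp, rose within pairs (0.45 ± 0.11, adjusted p = 0.00713).

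Med24, a tail subunit that forms a submodule with Med16 and Med23, was at 63.9, 51.9 and 54.1 CPM in control libraries and at 47.8, 41.2 and 38.3 CPM in NMDA libraries. It is the 1 member of the 3 whose groups do not overlap. Within pairs the change was -0.42 ± 0.08 (adjusted p = 0.000892), a 1.34-fold lower level, with differences of -0.42, -0.34 and -0.50, and without the block it was -0.42 ± 0.12 (adjusted p = 0.187). Med24 lies on chromosome 11 from 98704591 to 98729435, between Psmd3, a proteasome subunit gene, and Thra, which encodes a thyroid hormone receptor that binds Mediator. Neither neighbour passed within pairs, with log2 changes of 0.12 ± 0.07 for Psmd3 and 0.11 ± 0.08 for Thra.

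In the fit within pairs, 5.65% of all tested genes were called higher and 8.35% lower. There 7 of 8 astrocyte markers rose, with a median log2 change of 0.31. Of 9 neuron markers 2 rose and 0 fell, with a median of 0.02, and 1 of 5 oligodendrocyte-lineage markers fell. The part of these shifts in the 3 falls, and in the changes of other genes named below, was not tested. Without the block 0 markers passed. Med12 and Med24 passed in each of the 7 other fits with the block, with log2 changes from -0.72 to -0.48 and from -0.46 to -0.36. Shares over all tested genes were computed for only some of these fits.

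**Figure D3:**
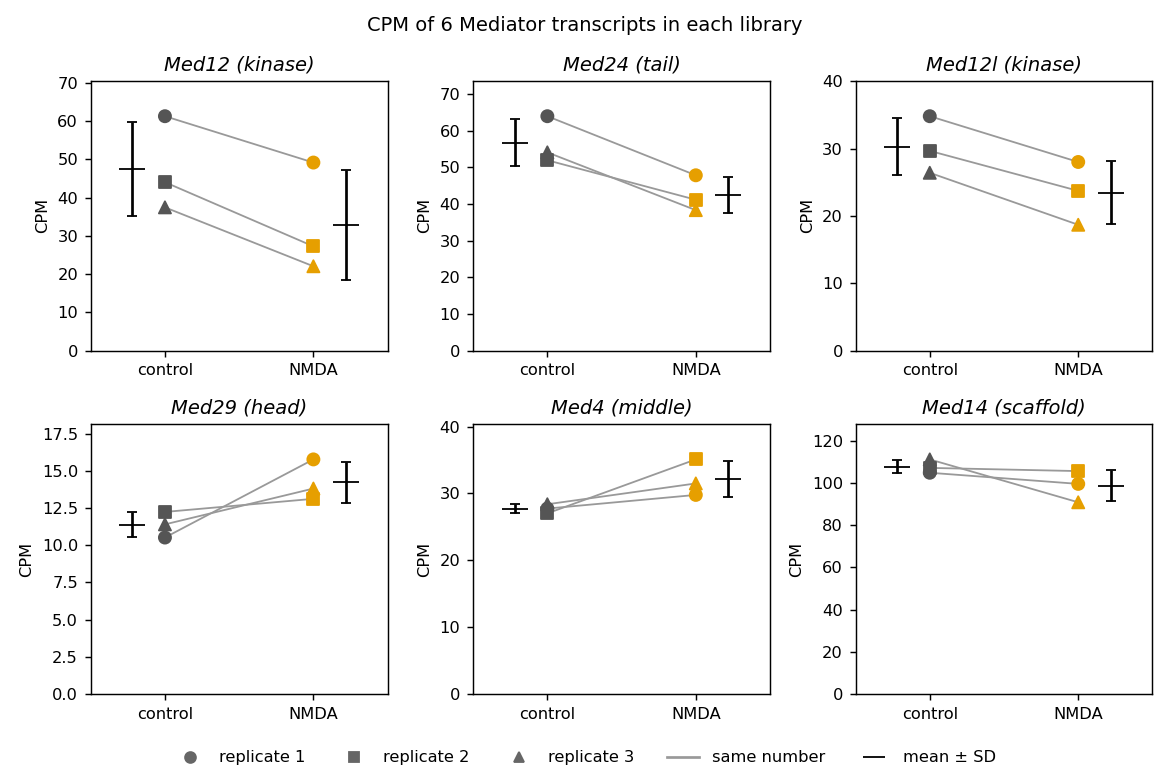
CPM of 6 Mediator transcripts in each library, with lines joining libraries of the same replicate number and the mean ± SD of each group beside the points. Med12, Med24 and Med12l fall along all 3 lines, Med29 and Med4 lie higher in NMDA along all 3 without passing the test, and the Med14 libraries overlap between groups.

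The other kinase module transcripts did not pass in either fit. Med13, which tethers the kinase module to the core, was at 127, 117 and 129.8 CPM in control and 126, 115 and 111 CPM in NMDA libraries (within pairs -0.09, 95% interval -0.24 to 0.07). Med13l was at 80.9, 68.9 and 68.2 CPM in control and 74.2, 62.7 and 63.2 CPM in NMDA libraries (-0.12, interval -0.27 to 0.02), with differences of -0.12, -0.14 and -0.11 in pairs 1, 2 and 3. Cdk19 was at 59.5, 64.9 and 62.4 CPM in control and 58.6, 59.2 and 54.0 CPM in NMDA libraries, with no overlap (-0.12, interval -0.27 to 0.03). Cdk8 was at 38.2, 42.9 and 41.8 CPM in control and 41.4, 42.6 and 43.2 CPM in NMDA libraries (0.05, interval -0.11 to 0.21). Ccnc, the cyclin of both kinases, was at 68.96 to 79.8 CPM in control and 71.8 to 79.5 CPM in NMDA libraries (0.01, interval -0.15 to 0.17). In 5 of the 7 kinase module genes (71.4%) all 3 pairs were lower, against 25.7% of all tested genes, the 2 others being Cdk8 and Ccnc. Of these 5, only Med12 and Med12l were called. Some differences lay near 0, at -0.0022 and -0.031 for Med13 in pairs 1 and 2 and -0.021 for Cdk19 in pair 1. The summed level of the module was 470, 446 and 446 CPM in control and 457, 402 and 389 CPM in NMDA libraries, so NMDA replicate 1 lay inside the control range and the other NMDA libraries below it.

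The other tail subunits went in both directions without passing. Med23, a docking site for Elk1, was at 32.3 to 39.7 CPM in control and 29.3 to 32.8 CPM in NMDA libraries (within pairs -0.23 ± 0.08, adjusted p = 0.0737), lower in all 3 pairs. Med25, which binds activators of the ETS family, was at 29.1 to 32.1 CPM in control and 34.6 to 36.9 CPM in NMDA libraries, with no overlap (0.20 ± 0.08, adjusted p = 0.111). It passed within pairs once GC content and exonic length were corrected for, where 14.6% of all tested genes passed (8% higher and 6.56% lower). It also passed, with Med4, without both libraries of replicate 1, where 18.4% of all tested genes did (9.14% higher and 9.31% lower). Med15, the docking site for SREBP factors, stood at 0.12 ± 0.08 and Med16 at 0.09 ± 0.10. The tail's median was 0.09, both for its 5 genes and for 9 genes with Med27 to Med30 counted in.

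In the head module 0 of 11 genes passed. Med29 had the largest positive value of all members, at 10.5, 12.2 and 11.4 CPM in control and 15.8, 13.1 and 13.8 CPM in NMDA libraries. The groups do not overlap, and the differences were 0.58, 0.10 and 0.28 in pairs 1, 2 and 3 (within pairs 0.32 ± 0.12, adjusted p = 0.0761; without the block adjusted p = 0.330). Med20, which sits with Med18 at the edge of the head, was lower without overlap, at 12.5 to 13.1 CPM in control and 10.8 to 11.6 CPM in NMDA libraries (-0.18 ± 0.11, adjusted p = 0.317). Med17, a central head subunit, stood at -0.02 (interval -0.21 to 0.16), and Med6 at -0.11 (interval -0.31 to 0.09). Med11 and Med30 had pairs of opposite sign that lay far apart, at -0.10, -0.64 and 0.30 for Med11 and -0.53, -0.04 and 0.40 for Med30.

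In the middle module 0 of the 8 tested genes passed, and the scaffold gene did not pass. Med4, a core subunit of the middle module, was at 27.7, 27.0 and 28.4 CPM in control and 29.8, 35.1 and 31.5 CPM in NMDA libraries, without overlap (0.21 ± 0.09, adjusted p = 0.115). Med1, the docking site of nuclear receptors, was at 84.3 to 101 CPM in control and 77.5 to 89.9 CPM in NMDA libraries and was lower in all 3 pairs (-0.13, interval -0.27 to 0.02). Med26 stood at 0.14 (interval -0.14 to 0.43). Med14, the scaffold, was at 105, 107 and 111 CPM in control and 99.6, 106 and 90.9 CPM in NMDA libraries, and the groups overlap (-0.13, interval -0.28 to 0.03). Within pairs the interval lay inside 1.5-fold for 31 of the 32 members (96.9%, against 73.3% of all tested genes), the exception being Med12. These intervals are for the mean change and draw in part on the spread of other genes. Single pairs could lie outside, as for Med11 of the head, whose pair 2 stood at -0.64.

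Pair by pair, 12 of the 32 members (37.5%) were lower in all 3 pairs and 5 (15.6%) higher in all 3. Over all tested genes 25.7% were lower and 22.5% higher in all 3, together 48.2%. The 12 were Med12, Med12l, Med13, Med13l and Cdk19 of the kinase module, Med23 and Med24 of the tail, Med1 and Med31 of the middle, Med8 and Med20 of the head, and Med14. The 5 were Med15 and Med25 of the tail, Med22 and Med29 of the head, and Med4. Groups without overlap were seen in 3 members on the lower side (Med24, Cdk19 and Med20) and 3 on the higher side (Med25, Med29 and Med4), together 18.8%, against 19.3% of all tested genes (11.1% lower and 8.18% higher). The medians by pair were -0.09, -0.04 and 0.04 over the members and -0.02, -0.01 and 0.0049 over all tested genes.

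**Figure D4:**
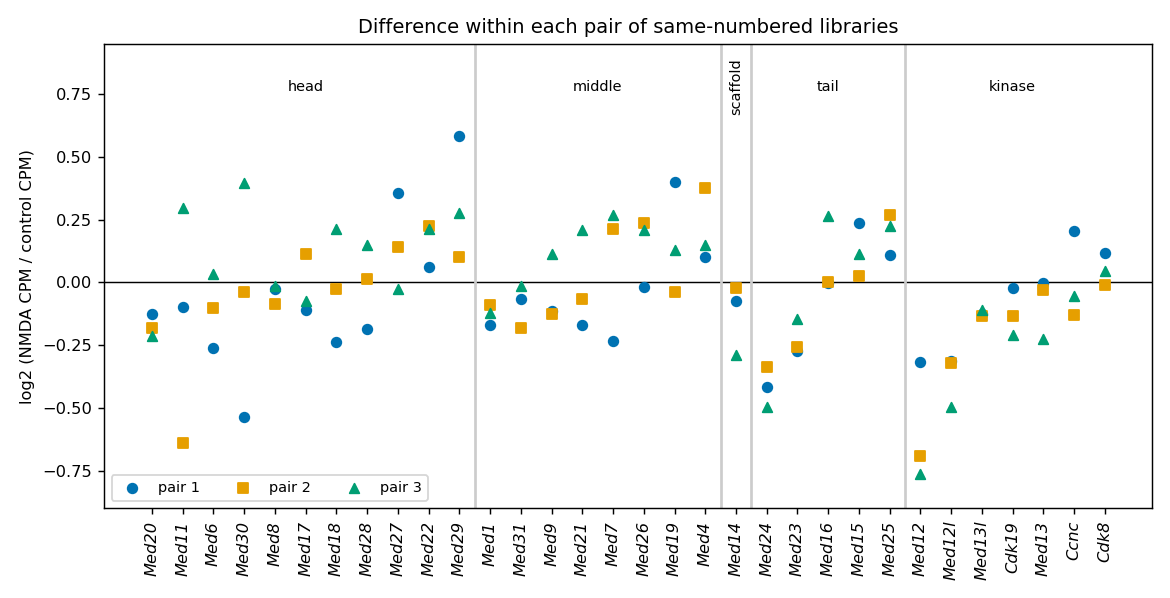
Log2 ratio of NMDA to control CPM in each pair of same-numbered libraries, for the 32 tested Mediator transcripts by module. Points of the kinase module lie on or below the line of no difference except for Cdk8 and Ccnc, while Med11 and Med30 of the head spread from below -0.5 to above 0.25.

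Members differed in how far the controls spread. The coefficient of variation over the 3 control libraries had a median of 8.00% over the members and 11.6% over all tested genes. These medians were not matched for level, and the members' median level per kb lay at percentile 65.3 of tested genes. The shares of intervals inside 1.5-fold given above were not matched for level either. Med12 had the largest, at 25.8%, followed by Med11 at 19.8% and Med30 at 17.5%, and Med9 the smallest at 1.599%. Med14, on chromosome X like Med12, had 2.97%.

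Promoter sequence is shown for 3 members that stand for the range of responses: Med12, which fell most, the scaffold Med14, and Med29, with the largest positive value. RefSeq promoter windows on GRCm38.p6, from 250 bases before to 50 after the start of transcription, were matched for 28 of the 33 members; Cdk19, Med8, Med23, Med24 and Med30 had no entry. Only the upstream bases outside any annotated exon are printed, from 5′ to 3′ on the gene's strand, with matches to the searched motifs in capitals: chrX:101273841-101274029 (+) for Med12, chrX:12762074-12762223 (-) for Med14 and chr7:28392709-28392940 (-) for Med29.
Med12: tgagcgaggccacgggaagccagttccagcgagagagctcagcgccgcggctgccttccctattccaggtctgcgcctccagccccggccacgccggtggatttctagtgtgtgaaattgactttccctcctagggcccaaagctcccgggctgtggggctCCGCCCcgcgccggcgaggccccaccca
Med14: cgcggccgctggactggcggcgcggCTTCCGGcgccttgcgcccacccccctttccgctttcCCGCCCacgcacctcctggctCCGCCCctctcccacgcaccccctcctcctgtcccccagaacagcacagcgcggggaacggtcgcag
Med29: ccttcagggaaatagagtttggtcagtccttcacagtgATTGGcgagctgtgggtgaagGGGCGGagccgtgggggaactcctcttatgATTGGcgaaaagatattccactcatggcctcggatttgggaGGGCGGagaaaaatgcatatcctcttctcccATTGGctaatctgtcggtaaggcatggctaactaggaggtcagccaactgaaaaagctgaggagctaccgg
The capitals mark the SP1 letters GGGCGG in all 3 sequences, the ETS letters CCGGAAG in Med14 and the CCAAT box, at 3 places, in Med29, each on either strand.

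Across the 32 promoter windows of the 28 matched members, GGGCGG was found in 62.5%, against 61.4% of 14265 windows of tested genes and 35.7% of all 32851 windows. The ETS letters CCGGAAG were found in 9 windows (28.1%), against 15.7% and 8.86%; the 8 genes were Med4, Med6, Med10, Med14, Med15, Med17, Med18 and Med19. CCAAT was found in 37.5%, against 37.7% and 37.4%. The CRE letters TGACGTCA, read by the activity-regulated factor CREB, were found in 1 window (Med21), against 2.98% of windows of tested genes, and the AP-1 letters TGANTCA in 2 (Med19 and Med28), against 4.89%. The E-box CACGTG was found in 4 windows, the YY1 letters AAGATGGC in 1 and the palindromic NRF1 motif in 0, against 9.56%, 3.99% and 1.89%. The core TGACG, which also lies inside the CRE, was found in 13 windows (40.6%), against 29.9%. The median GC content was 57.8% in the member windows and 60.7% in windows of tested genes. A match describes these letters only and shows no binding.

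Mediator works together with the preinitiation complex, the general factors that place RNA polymerase II at the start site. Of 32 genes for TBP, its associated factors and TFIIA, TFIIB, TFIIE, TFIIF and TFIIH, all were tested, and 0 passed without the block (4 at an unadjusted p under 0.05, or 12.5%, beside 13.7% of all tested genes). Within pairs 1 rose and 2 fell (9.38%, beside the 14% of all tested genes), and the median was 0.0076. Taf13, a TFIID subunit, rose from 59.9 ± 6.12 to 72.8 ± 11.4 CPM (within pairs log2 0.28 ± 0.08, adjusted p = 0.0238). Cdk7, the kinase of TFIIH, fell from 70.04 ± 4.01 to 59.3 ± 1.38 CPM (-0.24 ± 0.07, adjusted p = 0.0343), and Ercc2, a TFIIH helicase, fell from 10.3 ± 3.29 to 7.66 ± 2.21 CPM (-0.41 ± 0.13, adjusted p = 0.0396).

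Of 16 regulators of transcription known to bind a Mediator subunit, 15 were tested (Vdr had 0 to 2 reads per library). Of these, 0 passed without the block (5 at an unadjusted edgeR p under 0.05, or 33.3%, beside 13.7% of all tested genes). Within pairs 3 rose and 1 fell, or 20% and 6.67%, beside 5.65% and 8.35% of all tested genes. The list was chosen with earlier results of these data known, so these shares describe this list only. Srebf1, a lipid synthesis regulator that binds Med15, rose from 40.2 ± 5.43 to 56.1 ± 9.04 CPM (0.48 ± 0.09, adjusted p = 0.0014). Rest, a repressor of neuronal genes that works with Med12, rose from 13.4 ± 0.589 to 18.7 ± 1.86 CPM (0.48 ± 0.10, adjusted p = 0.0035), and Etv5, an ETS factor, rose from 72.6 ± 5.14 to 88.8 ± 3.23 CPM (0.29 ± 0.07, adjusted p = 0.011). Hsf1, the heat shock regulator, fell from 16.01 ± 1.08 to 11.2 ± 0.365 CPM (-0.51 ± 0.11, adjusted p = 0.003). The median of this list was 0.08.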

How the data were processed

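Raw read counts per gene were deposited by the authors for 6 libraries. The submitters' processing notes name Trimmomatic, TopHat, HTSeq, mm10 and GRCm38.p6; no version, annotation or strand setting is given in the sources used here. The 2153 rows without a symbol (0.219% to 0.246% of a library's counts) stayed in the fits as genes with identifiers. Counts were tested with edgeR 4.0.16 (R 4.3.3) over the whole table: default filter (minimum count 10, total 15; 14642 genes left), TMM scaling, robust quasi-likelihood F tests and Benjamini-Hochberg adjustment at 0.05. CPM uses these TMM factors. Exonic lengths and positions are from GENCODE M21 (GRCm38), which holds 36429 of the 38293 identifiers. No 2 libraries of a group agreed within counting noise (chi-square per degree of freedom 8.17 to 59.01). Same-numbered libraries correlated at 0.54, 0.38 and 0.49 in their deviations from the group means, so the numbers were taken as pairs; this comes from the data, not the labels. The blocked fit leaves 2 residual degrees of freedom, against 4. In both fits edgeR moderates the spread of a gene toward that of the other tested genes. The SE, intervals and p-values of a member thus do not rest on its own libraries alone. Alternatives used DESeq2 1.42.0, limma 3.58.1, other scalings and filters, GC and length offsets (mgcv 1.9.3) and left-out libraries. Simulated counts were used to test edgeR, DESeq2 and limma-voom, each without and with the block, and blocked edgeR with the offsets. The other scalings and filters and the left-out libraries were not tested this way. The simulated counts were drawn from a model that edgeR fitted to these libraries. How often changes of the size seen in the members were recovered is not given here. The members and lists were chosen with earlier results of these data known. Values per library are given for members past the threshold in either fit, the smallest p of each module, the paralogue pairs and Med14, with further members by range; from the related lists, genes past the threshold are named. Neighbouring genes, and the 3 printed promoters, were chosen after values were seen.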

Additional observations from a re-analysis of the deposited data

How the results depend on the processing

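Without the block, 0 Mediator members were called in either direction under DESeq2 size factors, upper quartile scaling, the DESeq2 test, limma-voom, no filter, a filter of 1 CPM in all libraries of a group and each library left out in turn, against 3 called lower with the replicate block. The median log2 change of the members moved in these 13 settings by less than the SD of the 3 pair medians, and ranged from -0.07 to 0.0029 with a library left out. Within pairs, 3 were lower, against 0 with no replicate block and 2 to 3 with both libraries of a number left out; 0 were higher, against 1 with GC and length offsets (Med25) and 0 to 2 with a number left out (2 without replicate 1, Med25 and Med4). The replicate block changed no other call among the members. Shares over all tested genes were computed for edgeR without and with the block and, with it, for DESeq2, the offsets and replicate 1 left out. For the other settings they were not computed, so those counts of calls describe the members only. Med12l was not called within pairs with the DESeq2 test or without replicate 3. Of the single members' values, 9 changed sign in some setting, none past the threshold and the cause not tested. With 1 library left out, the log2 change ranged from -0.058 to 0.047 for Ccnc, -0.062 to 0.026 for Med17, -0.11 to 0.074 for Med18, -0.10 to 0.045 for Med21, -0.056 to 0.043 for Med28, -0.19 to 0.069 for Med30, -0.21 to 0.011 for Med31, -0.099 to 0.016 for Med8 and -0.12 to 0.021 for Med9. Med28 was at 0.0021 with DESeq2 size factors, 0.0033 with upper quartile scaling and 0.0024 with the DESeq2 test. Where a library is left out, its group keeps 2 libraries. Depth limits the lowest members, such as Med18 with 65 to 100 reads per library.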
